A study of Drosophila melanogaster with 2 samples.

Results

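The aminoacyl-tRNA synthetase genes of Drosophila melanogaster were examined for binding of Sloppy paired 2 (Slp2), a forkhead transcription factor of the segmentation pathway, in whole embryos. The members were all protein-coding genes whose symbol is an amino acid code, or GluPro, followed by RS, with or without a suffix. This gave 33 of the 13945 protein-coding genes on the 6 chromosome arms, 18 without a suffix (called cytosolic here) and 15 with -m (called mitochondrial). The division is by symbol alone. No -m gene for Gln, Gly, His, Lys or Thr was among the members, and whether single genes serve both compartments was not examined. Embryos of both sexes were collected from 0 to 24 hours of age from 1 transgenic line of strain 9T-GFP that carries Slp2 with eGFP at its C terminus, and chromatin was precipitated with an antibody to GFP. There was 1 group of 2 samples, biological replicates 2 and 3; both carry the tagged protein, and no second condition or control sample was analysed here. The authors deposited peak lists of the single replicates, 1 made from the replicates pooled, and 1 of 3203 peaks selected by the irreproducible discovery rate (IDR), which compares peak ranks between replicates. Each peak has a summit, the position of its maximum, and a signal value, a score from the authors' peak caller whose scale is not stated and which serves here for ranking. Read depth is unknown, so no interval for counting error is given. Because whole embryos were used, a peak cannot be placed in a cell type. The counts below are descriptions of these lists, set beside the share among all protein-coding genes, and no test was made over the members.

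Aminoacyl-tRNA synthetases join each amino acid to its transfer RNAs and so supply the ribosome with charged tRNA. In animals the cytosol and the mitochondrion translate separately, and for many amino acids a second nuclear gene encodes the mitochondrial enzyme. The enzymes fall into class I and class II by the fold of the catalytic domain. In mammals a set of the cytosolic enzymes is held with scaffold proteins in a multi-synthetase complex. Many housekeeping genes of this kind start in promoters that they share with a gene on the other strand, which bears on how a peak can be assigned.

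An IDR summit within 500 bp of an own transcription start site (TSS) was found at 7 synthetase genes, all of them cytosolic: SerRS, ArgRS, IleRS, ThrRS, GluProRS, AspRS and AsnRS. The summit base and the 100 bases to each side of it are shown for those whose sequence is reported here, since these are the stretches at which the members' promoter peaks had their maxima. Each is given on the strand of the synthetase gene in dm6 coordinates, read from the RefSeq Release 6 assembly. Capitals mark matches to any of 7 short motifs searched on both strands: TGTTTAC and TGTTTAT, forms of the forkhead site that share their first 6 letters, TATCGATA, the site of the promoter factor DREF, GGTCACAC, a core promoter element, CAGCTG and CACGTG, E-boxes, and GAGAG, the GAGA factor site.
SerRS (chr2L:3037312-3037512, minus strand): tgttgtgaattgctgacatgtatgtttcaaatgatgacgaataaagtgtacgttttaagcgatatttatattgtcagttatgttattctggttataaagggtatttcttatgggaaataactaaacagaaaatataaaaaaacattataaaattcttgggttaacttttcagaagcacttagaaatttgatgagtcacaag
ArgRS (chrX:15844239-15844439, minus strand): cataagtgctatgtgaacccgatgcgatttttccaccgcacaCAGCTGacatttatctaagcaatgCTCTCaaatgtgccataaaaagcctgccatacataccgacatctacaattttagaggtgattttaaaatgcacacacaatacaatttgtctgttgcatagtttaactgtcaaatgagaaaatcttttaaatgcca
IleRS (chr3L:22288443-22288643, plus strand): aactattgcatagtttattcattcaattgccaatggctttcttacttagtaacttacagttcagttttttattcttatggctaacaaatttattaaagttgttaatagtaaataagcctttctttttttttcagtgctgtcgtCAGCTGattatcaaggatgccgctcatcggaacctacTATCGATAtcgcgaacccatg
ThrRS (chr2L:12103557-12103757, plus strand): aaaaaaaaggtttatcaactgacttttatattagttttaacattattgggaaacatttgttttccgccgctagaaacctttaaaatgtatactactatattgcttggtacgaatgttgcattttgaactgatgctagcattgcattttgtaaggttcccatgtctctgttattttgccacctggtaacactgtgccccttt
GluProRS (chr3R:23958485-23958685, minus strand): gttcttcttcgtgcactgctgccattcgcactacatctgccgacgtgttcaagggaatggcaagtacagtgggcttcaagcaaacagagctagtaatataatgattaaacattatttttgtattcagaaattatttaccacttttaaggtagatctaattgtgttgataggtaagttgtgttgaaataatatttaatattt
AsnRS (chr2L:19131901-19132101, minus strand): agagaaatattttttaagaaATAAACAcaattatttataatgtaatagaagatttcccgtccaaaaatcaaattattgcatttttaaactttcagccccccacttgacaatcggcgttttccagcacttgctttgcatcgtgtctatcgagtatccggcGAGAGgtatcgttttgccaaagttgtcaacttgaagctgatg

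Of the forkhead site, the form of site known for Slp2's protein family, only TGTTTAC and TGTTTAT were searched. They were found in 1 of the 7 windows, and other forms of the site may be present. TGTTTAC was in none of the 7 windows, against 7.91% of all 1631 IDR peaks within 500 bp of a TSS. TGTTTAT was in 1, that of AsnRS, where it stands as its reverse complement, against 10.2% of those peaks. TATCGATA was in 1 (IleRS), against 7.73%, and CAGCTG in 2 (ArgRS and IleRS), against 11.8%. GAGAG was in 2 (ArgRS and AsnRS), against 21.4%. Neither GGTCACAC nor CACGTG was in any window, and their shares among all IDR promoter peaks were 4.35% and 3.07%. The windows of SerRS, ThrRS and GluProRS held none of the 7 motifs. With 7 windows, a single match moves a member's share by more than most of these percentages, and no difference from promoter peaks in general can be read from them.

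The strongest promoter peak of a synthetase gene lay at SerRS, which encodes the seryl-tRNA synthetase (FBgn0031497, 2L, 3035493 to 3037403, minus strand). Its summit was at 3037412, 9 bp upstream of the TSS, in the annotated 5' UTR of the divergent gene CG17260, whose nearest TSS was 1 bp away. The signal value was 117.09 in replicate 2 and 120.03 in replicate 3, ranks 344 and 297 of 30000 in each list, and 239.2 in the IDR list, rank 301. The replicates placed this peak almost alike. A further IDR summit 2571 bp upstream of SerRS (rank 1071) lay 2 bp from the TSS of CG17221.

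ArgRS, the arginyl enzyme gene (FBgn0027093, X, 15841769 to 15844145), had a summit at 15844339, 194 bp upstream and 137 bp from the TSS of CG8578. The signal value was 100.47 in replicate 2 and 113.43 in replicate 3, ranks 485 and 326, and 211.79 in the IDR list, rank 384. IleRS, for isoleucine (FBgn0027086, 3L, 22288665 to 22292810), had a summit at 22288543, 122 bp upstream, with 83.1 in replicate 2 and 76.59 in replicate 3, ranks 705 and 726. Its IDR rank was 692 (signal value 158.7), and it was the only one of the 7 to rank better in replicate 2. The divergent neighbour of IleRS, Hem, which encodes a subunit of an actin-regulating complex, started 348 bp from the summit.

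ThrRS, for threonine (FBgn0027081, 2L, 12103751 to 12107170), had a summit at 12103657, 94 bp upstream, at IDR rank 861 (signal value 142.04). The values were 58.59 in replicate 2 and 72.88 in replicate 3, ranks 1455 and 792. GluProRS, whose product is a fused glutamyl and prolyl enzyme (FBgn0005674, 3R, 23952136 to 23958391), had a summit at 23958585, 194 bp upstream, but only 66 bp from the TSS of AP-1sigma, a clathrin adaptor subunit gene. Its values were 44.5 in replicate 2 and 70.23 in replicate 3, ranks 2401 and 843, and its IDR rank was 1221 (signal value 119.12). For both genes replicate 3 gave the higher place.

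The weakest of the 7 differed most between the replicates in rank. AspRS, for aspartate (FBgn0002069, 2R, 12877004 to 12883168), had its summit at 12880096, which is in an intron of its longest transcript and 188 bp upstream of an internal start at 12880284. The nearest TSS, at 134 bp, belonged to Nmda1, which lies inside that intron on the other strand. The summit was also in an intron of Nmda1. Values were 34.96 in replicate 2 and 61.07 in replicate 3, ranks 3650 and 1095, with IDR rank 1955 (signal value 90.11). AsnRS, for asparagine (FBgn0086443, 2L, 19129469 to 19131954), had a summit at 19132001, 47 bp upstream, with 29.76 in replicate 2 and 45.99 in replicate 3, ranks 4802 and 1759, and IDR rank 2439 (signal value 77.53). Neither AspRS nor AsnRS was among the 3203 strongest peaks of replicate 2; both were among those of replicate 3. AsnRS had 2 further IDR summits in its 5 kb window, 1694 and 4322 bp upstream, in introns of Polr1D and brat.

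**Figure D1:**
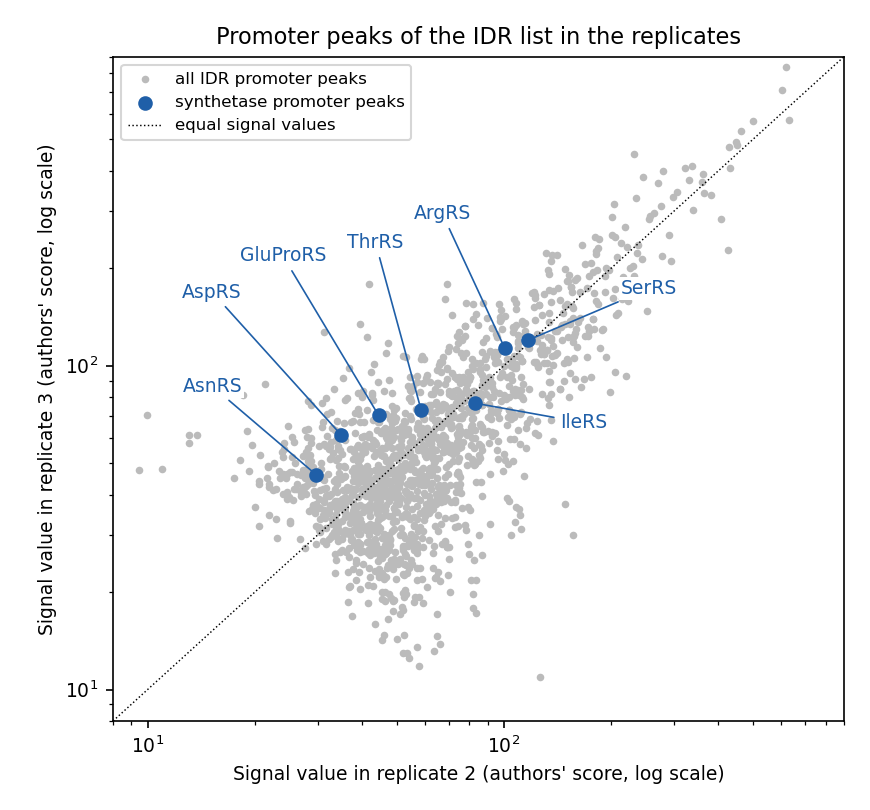
Signal value (the authors' score, log scales) in replicate 2 and replicate 3. Grey points are the 1604 IDR promoter peaks that had a match in each replicate, and the 7 synthetase promoter peaks are blue and named. A match is the strongest replicate peak with its summit at most 200 bp away, so close IDR peaks can share a match. SerRS, ArgRS and IleRS lie near the line of equal values, and GluProRS, AspRS and AsnRS lie above it, with the higher value in replicate 3.

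The log2 ratio of replicate 2 to replicate 3 was -0.04 for SerRS, -0.18 for ArgRS, 0.12 for IleRS, -0.32 for ThrRS, -0.66 for GluProRS, -0.81 for AspRS and -0.63 for AsnRS. Over all IDR promoter peaks its median was 0.09 and its SD 0.67 (n = 1604 peaks). Thus 4 of the 7 lay within 1 SD of that median, and GluProRS, AspRS and AsnRS lay further on the side of replicate 3. Each match was the strongest replicate peak within 200 bp, so some IDR peaks took the value of a stronger neighbour. How far this widened the SD was not examined. The summits of the replicates were 6 to 88 bp apart, the widest gap being at AspRS. The 7 signal values in the IDR list had a median of 142.04 (77.53 to 239.2), against 104.1 for all IDR promoter peaks, and 5 of the 7 were above that median. All 7 had the highest -log10 q value the list gives, 3.69, as did 76.6% of the IDR promoter peaks, so that value does not order them. In position they resembled other promoter peaks: all 7 summits were upstream of the own TSS, as were 87.9% of those at the 2120 genes with such a peak.

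Against the whole gene set, the share of synthetase genes with an own-promoter summit was 21.2% (7 of 33), and the share of all protein-coding genes was 15.2%. The share was uneven, with 7 of 18 cytosolic genes (38.9%) and 0 of 15 mitochondrial genes. Taking the 3203 strongest peaks of each replicate instead, replicate 2 gave 6 members (14.2% of all genes) and replicate 3 gave 7 (15.6% of all genes). The 7 of replicate 3 were the same 7 genes. Replicate 2 kept 5 of them, lost AspRS and AsnRS, and added a mitochondrial gene, ArgRS-m.

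Shared promoters were frequent among the members and bear on every one of these peaks. Another protein-coding gene had a TSS within 500 bp of an own TSS at 22 of 33 members (66.7%), against 30.9% of all protein-coding genes, and at 21 of the 22 the nearest such gene was divergent. All 7 own-promoter peaks were at members of this kind, and each summit lay within 500 bp of a TSS of 1 other gene. Of the 2120 protein-coding genes with an own-promoter summit, 1265 had such a neighbour. At 58.3% of the 2120 the summit lay within 500 bp of another gene's TSS. Among genes with such a neighbour, 31.8% of the members (7 of 22) and 29.4% of all genes had an own-promoter summit, so within this class the members as a whole stood at the background. Among genes without one the figures were 0 of 11 members and 8.87% of all genes. Within the class, the cytosolic members had 7 of 15 and the mitochondrial members 0 of 7. The nearest TSS was that of the synthetase at 3 of the 7 summits (IleRS, ThrRS and AsnRS) and that of the neighbour at the other 4. Where the own TSS had to be the nearest, the members' share was 9.09% (3 of 33), below the 11.1% of all genes. A summit between such close starts, or just beside them as at SerRS and AspRS, cannot be given to 1 of the genes. Whether the neighbours account for the peaks was not tested.

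**Figure D2:**
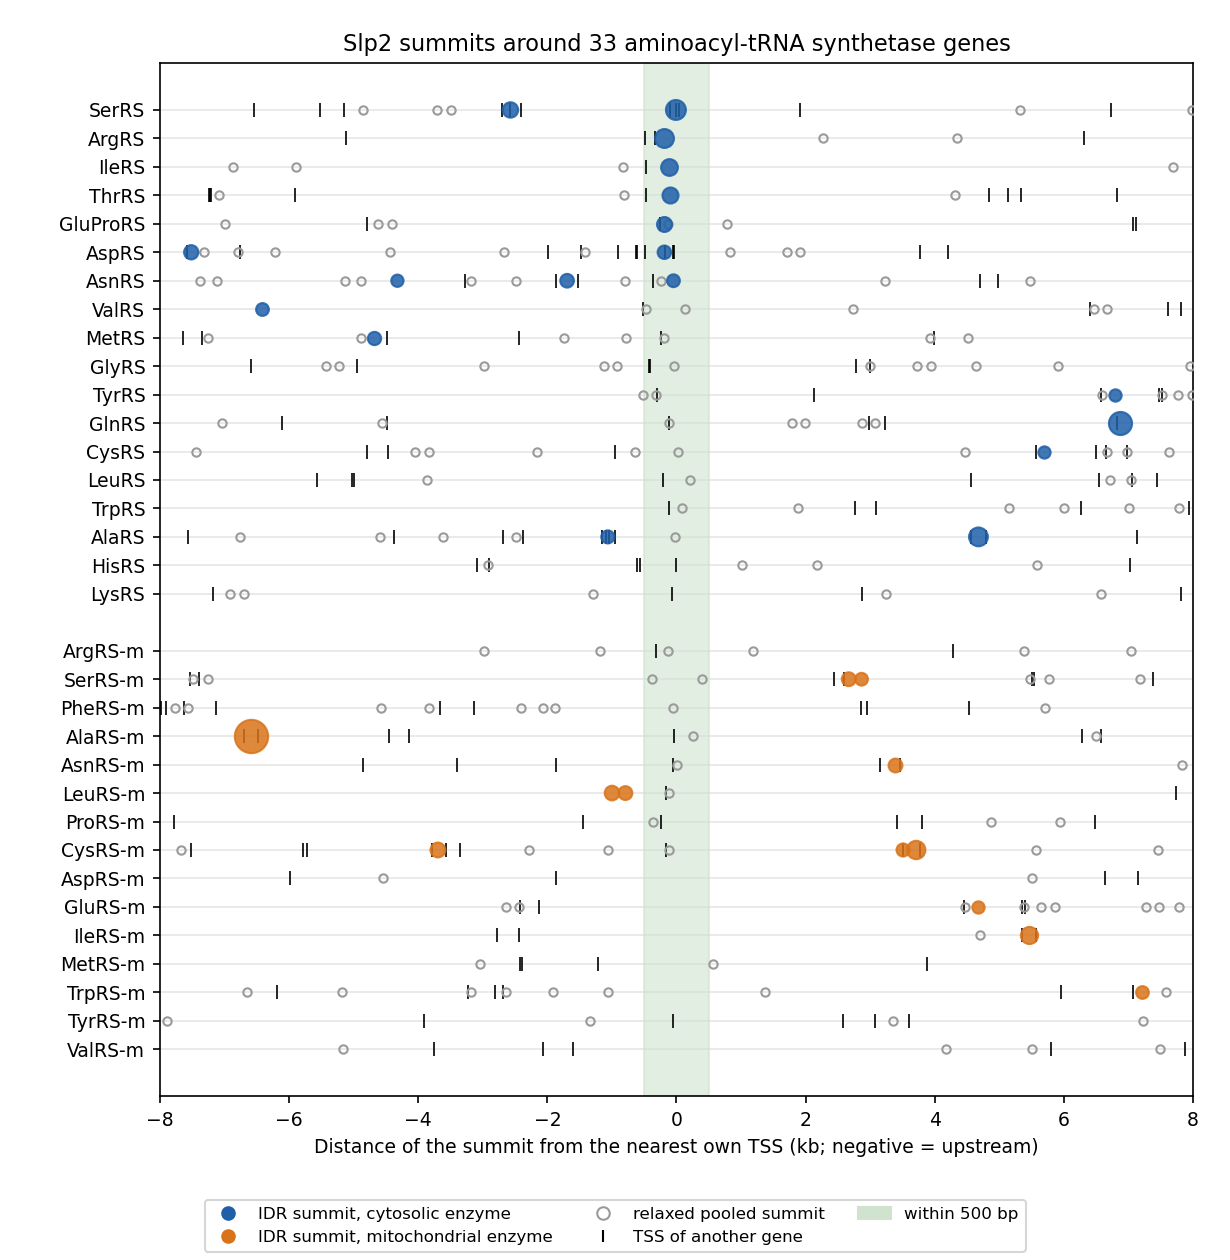
Summits around the own TSS of the 33 synthetase genes: the x axis gives the distance in kb from the nearest own TSS (negative is upstream), filled circles are IDR summits with area rising with signal value, open circles are other summits of the pooled list and black ticks are TSSs of other genes. Within 500 bp (green band) filled circles are seen at 7 cytosolic genes and at no mitochondrial gene, and most of the remaining filled circles lie beside black ticks.

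The other groupings of the members gave small counts. Beside them stand 15.2% of all protein-coding genes, and 29.4% of those with a neighbouring TSS within 500 bp. Class II enzymes of the cytosol had an own-promoter summit at 4 of 8 genes and class I at 2 of 9, with GluProRS, which holds both kinds of domain, counted in neither. Such a neighbour was present at 7 of the 8 class II genes and 7 of the 9 class I genes. Of the 8 genes whose mammalian counterparts sit in the multi-synthetase complex, 4 had one (ArgRS, AspRS, GluProRS and IleRS), and GlnRS, LeuRS, LysRS and MetRS did not. Of the 10 other cytosolic genes, 3 had one. All 8 genes of the complex had a neighbouring TSS within 500 bp, as had 7 of the 10 others. Members with 2 or 3 annotated starts had a peak in 4 of 9 cases and those with 1 start in 3 of 24. Over all protein-coding genes the shares were 25.4% with 2 or more starts and 11.5% with 1. Counting only the 5'-most start of each gene removed AspRS from the 7.

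For 12 amino acids both a cytosolic and a mitochondrial gene were members, so the enzymes could be set side by side. The cytosolic gene had an own-promoter IDR summit in 5 of the 12 (Arg, Asn, Asp, Ile and Ser) and the mitochondrial gene in none, against 15.2% of all protein-coding genes. The pairs were not matched for shared promoters. A neighbouring TSS within 500 bp was found at 15 of all 18 cytosolic members and 7 of all 15 mitochondrial members. In the pooled list, which runs down to rank 28637, the best summit within 500 bp of an own TSS ranked better for the cytosolic gene in 10 pairs, in 6 of which the mitochondrial gene had no such summit. Over all protein-coding genes 51.4% had such a summit. SerRS ranked 301 and SerRS-m 4521, ArgRS ranked 384 and ArgRS-m 3357, and AsnRS ranked 2439 and AsnRS-m 8006. The order was the opposite for alanine, with AlaRS at 22953 and AlaRS-m at 5853, and for leucine, with LeuRS at 11869 and LeuRS-m at 8646. All 4 of these ranks lie outside the IDR list.

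Below the IDR list the members were listed often. A summit of the pooled list lay within 500 bp of an own TSS at 24 of 33 members (72.7%), 16 of 18 cytosolic and 8 of 15 mitochondrial, against 51.4% of all genes. In replicate 2 it was 26 members (53.7% of all genes) and in replicate 3 it was 16 (44.4% of all genes). All 16 of replicate 3 were also listed in replicate 2, while 10 members were listed in replicate 2 alone. Over all genes 2618 were listed in replicate 2 alone and 1327 in replicate 3 alone. These lists were made to include background, so a low rank there is not a call of binding.

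**Figure D3:**
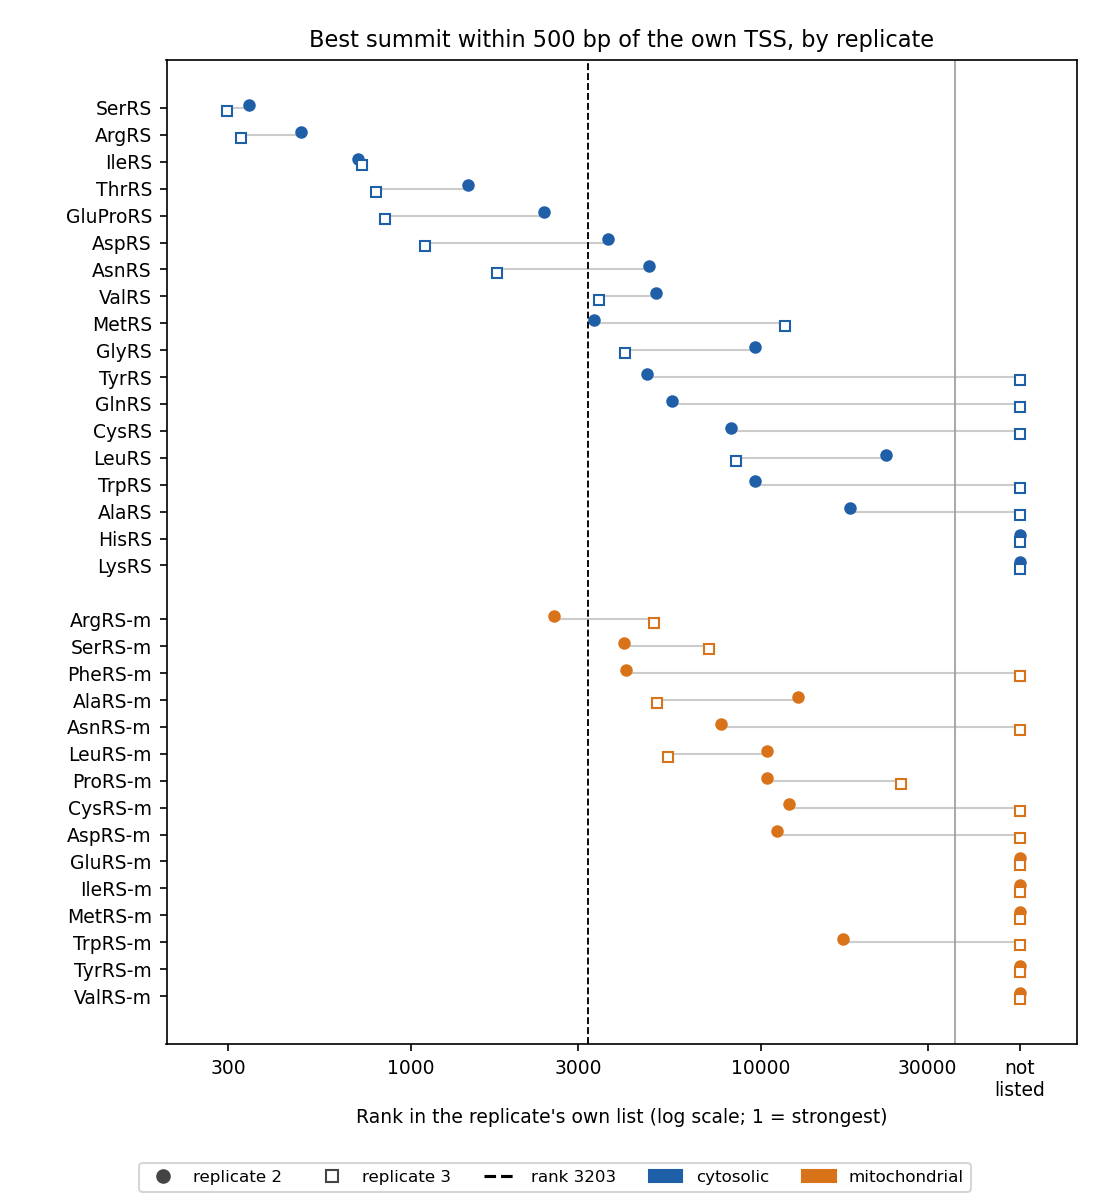
Rank of the best summit within 500 bp of an own TSS in replicate 2 (circles) and replicate 3 (squares), log scale, for the 18 cytosolic (blue) and 15 mitochondrial (orange) synthetase genes, ordered by pooled rank, with genes without such a summit at the right edge. Left of the dashed line at rank 3203 stand 5 cytosolic genes in both replicates, AspRS and AsnRS in replicate 3 alone and ArgRS-m in replicate 2 alone.

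The mitochondrial gene nearest to the IDR list was ArgRS-m. Its summit 129 bp from the TSS ranked 3357 in the pooled list (signal value 63.4, where the weakest IDR peak had 65.41), and its values were 42.9 in replicate 2, rank 2557, and 23.31 in replicate 3, rank 4966. SerRS-m followed with pooled rank 4521, at a summit upstream of its TSS. Its best summit in replicate 2, of rank 4064, was also upstream. The best in replicate 3, of rank 7102, lay 408 bp downstream and so belonged to a different peak. Of the cytosolic genes, ValRS was just outside at pooled rank 4651 (29.03 and 28.86 in replicates 2 and 3, ranks 5007 and 3450), and MetRS at 4685 (ranks 3328 and 11756). PheRS-m, for mitochondrial phenylalanine charging, had pooled rank 4868 and rank 4128 in replicate 2 (signal value 32.57), and was not listed in replicate 3. GlyRS had pooled rank 5070, with 19.74 in replicate 2 (rank 9650) and 25.9 in replicate 3 (rank 4101). AlaRS-m had pooled rank 5853, with 16.78 in replicate 2 and 23.04 in replicate 3. By distance, the members just outside the 500 bp rule were LeuRS-m, with its nearest IDR summit at 791 bp, and AlaRS at 1064 bp, and the farthest inside were ArgRS and GluProRS at 194 bp.

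In a wider window, the further peaks lay nearest to starts of other genes. An IDR summit lay in the body or within 5 kb of it at 19 of 33 members (57.6%), against 39.4% of all genes. The 7 genes with a promoter peak were among these. The other 12 were AlaRS, CysRS, GlnRS, MetRS and TyrRS of the cytosolic genes and AsnRS-m, CysRS-m, GluRS-m, IleRS-m, LeuRS-m, SerRS-m and TrpRS-m of the mitochondrial genes. At none of these 12 was an own TSS the nearest to any of their 16 summits. All but the pair at LeuRS-m were within 500 bp of a TSS of another gene, and that pair lay in an intron of Dhc64C, the dynein heavy chain gene. Of the 3203 IDR peaks, 1631 were within 500 bp of a protein-coding TSS. The 12 members are those without a summit within 500 bp of an own TSS, so a nearer start of another gene is partly built in. Only AspRS had an IDR summit within its own body (3.03% of the members, against 9.06% of all genes). With the own TSS required to be the nearest, 3 members (9.09%) had a summit in the wider window, against 16.0% of all genes.

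The strongest of these peaks, in the GlnRS window, had its summit at 3R, 25258848, with IDR rank 139 (signal value 333.4), and lay 6873 bp from the start of GlnRS and 50 bp from that of CG11857. Its values were 133.65 in replicate 2 and 192.3 in replicate 3, ranks 263 and 97. The AlaRS window held a peak of rank 392 (signal value 210.33) at 2L, 8376912, 115 bp from the TSS of CG13390, with 108.42 and 99.88 in replicates 2 and 3, ranks 403 and 430. A weaker AlaRS summit, of rank 2222 at 8382828, lay 1064 bp upstream and 21 bp from the TSS of CG13392. It had 49.99 in replicate 2, rank 1943, and 14.3 in replicate 3, rank 16183, so the replicates placed it far apart.

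Of the mitochondrial genes, CysRS-m (2R) had 3 such summits. The strongest, at 14157550, had rank 450 (signal value 197.83) and lay 62 bp from CG13018, with 74.96 in replicate 2 and 126.81 in replicate 3, ranks 880 and 262. The summit at 14157753, of rank 2199, lay 9 bp from CG13016 and matched the same peak of replicate 3, with 31.17 in replicate 2. The summit at 14164957, of rank 1260, lay 94 bp from CG8323, with 58.18 and 59.04. IleRS-m (3L) had a summit of rank 605 (signal value 168.64) at 16105741, 111 bp from CG43295, with 82.97 and 80.34 in replicates 2 and 3, ranks 710 and 667. At both genes every such summit was at least 3509 bp from the own start.

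The other windows held weaker peaks. LeuRS-m (3L) had summits at 4824855 and 4825062, 998 and 791 bp upstream of its start, of ranks 1349 and 1724. Their values were 73.87 and 58.4 in replicate 2, and both matched 1 peak of replicate 3, with 52.08 (rank 1433). SerRS-m (3R) had summits at 15343334 and 15343533, beyond its 3' end and near Nagk, of ranks 1728 and 2492. Their values were 46.56 and 45.61 in replicate 2, and both matched a peak of 47.96 (rank 1630) in replicate 3. At each pair this was the strongest peak of replicate 3 within 200 bp of both summits. Whether replicate 3 holds a further, weaker peak there was not examined.

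AsnRS-m (2R, 17005379) had a summit of rank 1729 that lay 72 bp from CG6805, with 45.62 in replicate 2 and 53.04 in replicate 3. MetRS (2R, 18855279) had one of rank 2081 that lay 192 bp from Jheh1, with 38.01 and 53.96. TrpRS-m (3L, 17856942) had one of rank 2526 that lay 148 bp from CG5535, with 46.23 and 35.89. CysRS (2R, 16148844) had one of rank 3034 that lay 125 bp from sotv, with 52.65 (rank 1763) and 20.29 (rank 6702), higher in replicate 2. GluRS-m and TyrRS are neighbours on 3L, and the same summit at 16412514, near Serinc (rank 2948), was counted for both. It had 36.24 in replicate 3 and no counterpart within 200 bp in replicate 2.

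No IDR summit was found in either window at the remaining 14 members. Besides ArgRS-m, ValRS, PheRS-m, GlyRS and AlaRS-m, given above, these were LeuRS, ProRS-m and TrpRS, at pooled ranks 11869, 12707 and 17419. For AspRS-m, HisRS, LysRS, MetRS-m, TyrRS-m and ValRS-m no pooled summit lay within 500 bp of an own TSS, although AspRS-m was listed in replicate 2 at rank 11126. HisRS shares its annotated start with a transcript of Bx on the same strand, so any peak there could not have been given to HisRS alone.

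An E-box, CAGCTG, was found within 100 bp of the 5'-most TSS at 14 of 33 members (42.4%), against 13.8% of all protein-coding promoters in windows of the same length. In windows of 50 bp to each side the shares were 36.4% and 9.34%, and in windows of 200 bp 54.5% and 22.3%. The motif was at 6 of 18 cytosolic and 8 of 15 mitochondrial genes. It was at 3 of the 7 members with an own-promoter IDR summit and at 11 of the 26 without, and over all protein-coding genes at 18.9% of promoters with such a summit and 12.9% of the others. Mitochondrial ribosomal protein genes held it at 38 of 73 promoters (52.1%) and cytosolic ribosomal protein genes at 8 of 92 (8.7%). Where a neighbouring TSS lay within 500 bp, members held it at 9 of 22 promoters (40.9%) and all protein-coding genes at 19.3%. A match says only that the letters are there.

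Examples are shown because this element was present at members with and without a peak. Each has 30 bases on the strand of the gene, with CAGCTG in capitals, for the 2 cytosolic genes ArgRS and GluProRS, which had a promoter peak, and for 4 mitochondrial genes, which had none. CysRS, HisRS and TyrRS, cytosolic genes without a promoter peak, also held the motif and are not among the examples. The first base of the motif stood 47 bp upstream of the TSS at ArgRS, 5 bp upstream at MetRS-m and 27 bp upstream at TrpRS-m. At GluRS-m it stood 7 bp downstream, at LeuRS-m 10 bp downstream and at GluProRS 28 bp downstream. The 14 genes held 18 matches, 10 upstream and 8 downstream of the TSS.
ArgRS (chrX:15844175-15844204, minus strand): gcgtgacatcacCAGCTGttatcgttatcg
GluProRS (chr3R:23958346-23958375, minus strand): tgtagacgttagCAGCTGgccgtactcgtg
GluRS-m (chr3L:16417153-16417182, minus strand): tctagtttcgatCAGCTGtttggggtaaac
LeuRS-m (chr3L:4825851-4825880, plus strand): gatgcagagaaaCAGCTGttcgattgtaga
MetRS-m (chr3R:14259979-14260008, minus strand): gcactggtggcaCAGCTGttcaatgttata
TrpRS-m (chr3L:17849688-17849717, plus strand): tatcactgttcaCAGCTGtcgtaccggctt

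Other motifs near the starts were less frequent or nearer to the background. TATCGATA was within 100 bp of the 5'-most TSS at 5 members (15.2%, against 7.84% of all promoters): AlaRS, ArgRS, IleRS, PheRS-m and TrpRS. GGTCACAC was at 4 (12.1%, against 6.76%), namely AsnRS-m, AspRS-m, GlnRS and ProRS-m, none with a promoter peak. TGTTTAC was at 2 (6.06%, against 6.6%), ArgRS-m and GluRS-m, and TGTTTAT at 3 (9.09%, against 7.9%), AspRS-m, CysRS and MetRS. Over all protein-coding genes, promoters with an own-promoter IDR summit held TGTTTAC at 8.92% and the others at 6.19%, and TGTTTAT at 9.2% and 7.66%. For GGTCACAC these shares were 9.62% and 6.24%, and for TATCGATA 11.4% and 7.2%. Of the 5 members with TGTTTAC or TGTTTAT near the start, 0 had such a summit. These members, and those with GGTCACAC, are too few to set against these shares. GAGAG was at 3 (9.09%, against 22.5%), and CACGTG at 1 (3.03%, against 2.88%).

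**Figure D4:**
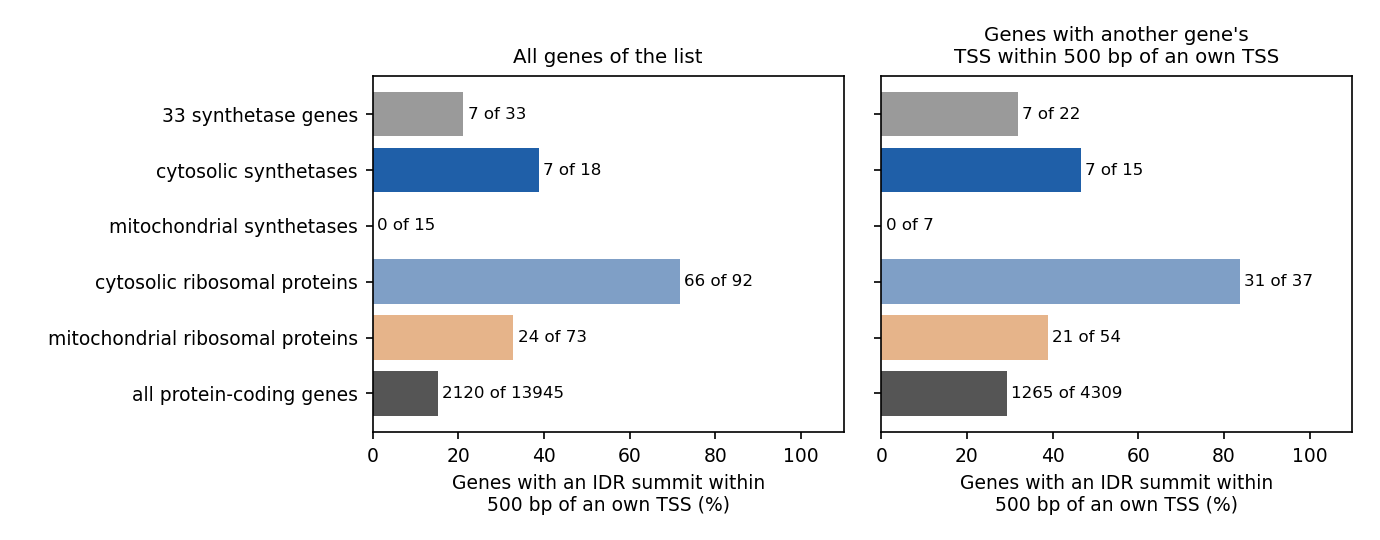
Share of genes (%) with an IDR summit within 500 bp of an own TSS, for all genes of each of the 6 lists drawn (left) and for those with another gene's TSS within 500 bp of an own TSS (right), with the counts beside the bars. All 33 synthetase genes stand at 7 of 33 and 7 of 22, near all protein-coding genes in the right panel (1265 of 4309), and cytosolic ribosomal protein genes have the longest bar of the 6 drawn in each panel.

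The other genes of tRNA charging and delivery were taken as lists. Of 9 genes for enzymes and partners that the symbol rule leaves out, 2 had an own-promoter summit. These were GatA, a subunit of the mitochondrial amidotransferase that completes glutaminyl-tRNA (rank 786, signal value 148.44, 70 bp from the TSS, ranks 1028 and 775 in replicates 2 and 3), and beta-PheRS, a subunit of the cytosolic phenylalanyl enzyme (rank 2253, ranks 2105 and 3387). The other subunit gene, alpha-PheRS, the scaffold genes AIMP1, AIMP2 and AIMP3, the synthetase-like gene Slimp, GatB and GatC had none. Of 7 elongation factor genes for tRNA delivery, eEF1gamma (rank 309, signal value 236.28, ranks 214 and 524) and eEF1alpha1 (rank 1477, ranks 8523 and 549) had one. Of 13 tRNA processing genes only rswl had one, at rank 3194 of 3203. A divergent gene started 74 bp from the own TSS at GatA, 156 bp at eEF1alpha1 and 243 bp at rswl. At beta-PheRS and eEF1gamma no other protein-coding gene started within 500 bp of the own TSS. In the order given, the lists had an own-promoter summit at 22.2%, 28.6% and 7.69% of genes, against 15.2% of all protein-coding genes. Beside these, 66 of 92 cytosolic ribosomal protein genes (71.7%) and 24 of 73 mitochondrial ribosomal protein genes (32.9%) had an own-promoter summit. Among genes with a close neighbouring TSS the counts were 31 of 37 and 21 of 54. No test was made of the difference between any of these lists and the synthetase genes.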

How the data were processed

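Chromatin immunoprecipitation with sequencing was done on 2 biological replicates of tagged embryos, sonicated to 200 to 800 bp, per the labels. The authors deposited narrowPeak lists on dm6 and dm3. Per the deposited readme files, each replicate list and the pooled list (28637 peaks) came from alignments and a further data set, and the IDR list from these. The aligner, peak caller and threshold are not given in the sources used here. The deposited signal value is a score of the authors' caller, and the deposited q value is on a -log10 scale. The dm6 IDR list equalled the 3203 strongest pooled peaks, so its values are pooled and have no error of their own. The dm3 lists were not used here.

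Summits (start plus offset) were set against every annotated transcript start of protein-coding genes in Ensembl release 115 (BDGP6.54). A gene's own-promoter peak was the strongest with its summit within 500 bp, and its window was the body with 5 kb to each side. Each IDR peak was matched to the strongest replicate peak with its summit within 200 bp, so IDR peaks close together could share a match. Neighbours were the nearest TSS of another protein-coding gene. Motifs were exact letters on both strands. Python 3.11.15, numpy 2.4.6 and pandas 2.3.3 were used, and the counting steps were tested on simulated data. The members, lists and motifs were chosen with earlier results of these data known. Values were given by rule for the 8 strongest own-promoter peaks (there were 7), for members with a peak only in the window, and for the 5 best-ranked of those with neither. SerRS-m and MetRS were named with them after their values were seen, as were the CAGCTG examples.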

Additional observations from a re-analysis of the deposited data

How the results depend on the processing

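The count of 7 synthetase genes with an own-promoter summit is given here with the share of all genes in brackets. It was 7 with 250 bp (12.1%), 8 with 1000 bp (17.8%, adding LeuRS-m) and 9 with 2000 bp (21.9%). It was 6 with the 5'-most start (13.4%) and 5 in the stronger 50% of the IDR peaks (8.13%). It was 5 with peaks overlapped by the strongest sets of both replicates (10.8%), and 5 with summits within 100 bp in both (10.1%). The count was 6 with replicate 3 left out (14.2%) and 7 with replicate 2 left out (15.6%). It rose to 19 (13 cytosolic, 6 mitochondrial; 33.3% of all genes) with the 10000 strongest pooled peaks, and fell to 3 where the own TSS had to be the nearest, which turned the members' share (9.09%) below that of all genes (11.1%). The count of 19 genes with a summit within 5 kb was 12 with 2 kb (27.7% of all genes), 32 with 20 kb (69.1%), 29 with the 10000 strongest pooled peaks (68.6%) and 10 when the weaker IDR peaks were left out (24.1%). It was 1 within the body (3.03%, against 9.06% of all genes) and 3 with the own TSS nearest (9.09%, against 16.0%), both below the background. The 5 kb count was 17 with replicate 3 left out (37.9% of all genes) and 20 with replicate 2 left out (40.3%). The median rank of the 7 peaks, 861 in the IDR list, was 792 to 1455 in the single replicates. Within 50 bp of the summit TGTTTAT and TATCGATA were at 0 peaks, against 5.15% and 4.17% of all IDR promoter peaks. CAGCTG and GAGAG were at 1 each, against 4.9% and 9.93%. Within 200 bp TATCGATA was at 3, against 12.3%. Unknown depth limits all counts, and 2 replicates give no error of a count. No paired analysis was possible because there is 1 group.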
